A study of Mus musculus with 46 samples.

Results

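The genes described here restrain or license entry into the cell cycle, in pathways that act as barriers to converting fibroblasts into other cells. They comprise the CDK inhibitor genes Cdkn2a, Cdkn2b, Cdkn1a and Cdkn1b, and the tumour suppressor Trp53 with its negative regulator Mdm2. They also comprise the retinoblastoma gene Rb1 and the D cyclin genes Ccnd1 and Ccnd2. They were chosen by name, as 9 of 22238 protein-coding genes, and every called peak that overlapped a gene or the 1 kb on either side of it was given to that gene. The data were ChIP-Seq peak lists for histone H3.3, a variant that replaces canonical H3 outside replication at active genes, for H3K4me3, which marks promoters, and for H3K36me3, which marks transcribed gene bodies. Levels are summed normalized tag counts of a gene's peaks, in tags per 10 M tags of the library.

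Cells were mouse embryonic fibroblasts (MEFs) which, per the methods, carried an IRES-EGFP cassette behind the Oct4 stop codon, and, except at day 0, were infected with retroviruses for Oct4, Sox2, Klf4 and c-Myc. H3.3 was measured in 12 libraries of the reprogramming experiment: fibroblasts at day 0 (D0), unsorted cells at day 3 (D3), Thy-1-negative and Thy-1-positive cells at days 6 and 9 (D6T-, D9T-, D6T+, D9T+), SSEA-1-positive and SSEA-1-negative cells at days 12 and 16 (D12S+, D16S+, D12S-, D16S-), fully reprogrammed iPSCs, and ESD3 embryonic stem cells. ESD3 is, per the methods, a separate cell line from ATCC. It did not come from the infected fibroblasts but is counted among the 12 reprogramming libraries. Thy-1-negative and then SSEA-1-positive cells formed the successful route, and the opposite fractions the unsuccessful route. H3K4me3 and H3K36me3 were each measured in D0, D3, D6T-, D9T-, D12S+, D16S+ and iPSCs. A further 4 H3.3 libraries followed a transdifferentiation of MEFs towards hematopoietic cells, labelled SLBR and driven, per the methods, by Scl, Lmo2, Runx1 and Bmi1 on OP9 stromal cells: MEF, D4, cKit+ and cKit-. The fibroblasts for it had been depleted of cells with hematopoietic surface markers. Each group held 1 library, so that no value has a replicate, differences between groups have no test against replicate error, and Poisson intervals cover counting error only.

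The Ink4/Arf/Ink4b locus encodes inhibitors that act on both arms of senescence. Products of Ink4a and Cdkn2b block the kinases CDK4 and CDK6 and so keep the Rb protein active, whereas Arf restrains Mdm2 and so stabilises p53, which in turn induces Cdkn1a. D cyclins work in the opposite direction, since they activate the same kinases. Loss of the Ink4/Arf and p53 barriers is known to ease reprogramming of fibroblasts.

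The share of tags in peaks ranged from 4.88% to 22.0% over the 12 reprogramming H3.3 libraries (18.75 to 41.16 M tags), from 1.65% to 37.2% over the 4 transdifferentiation libraries, from 3.71% to 34.8% in H3K4me3 and from 1.07% to 42.4% in H3K36me3, and the H3K36me3 library of D6T- stood apart in its fragment length of 444 bp. Of 6 fibroblast markers (Col1a1, Col1a2, Col3a1, Thy1, Twist2, Postn), 6 had an H3.3 peak in D0, 0 had one in D16S+ and in ESD3 and 1 had one in iPSCs, and their summed level was 2785 for D0, 1171 in MEF, 172 for D16S- and 29.97 for iPSCs. The 6 pluripotency markers (Nanog, Esrrb, Zfp42, Dppa5a, Tdgf1, Utf1) summed to 64.0 for D0, 31.9 for D16S-, 604 for D16S+, 1099 for iPSCs and 1266 for ESD3. The cells labelled cKit+ had peaks on 2 of the 5 hematopoietic markers found in the annotation (Ptprc, Kit, Cd34, Gata2, Itga2b), with a sum of 13.6, against 59.99 in cKit- and 440 in D4.

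The sequences below show why the starts in the Ink4/Arf/Ink4b locus are read apart. Each run is the 250 bases before an annotated start in mm9, minus strand, with CG dinucleotides in capitals. Before the Arf start of Cdkn2a there were 38, a number reached by 1.88% of 32851 RefSeq promoter windows (GRCm38.p6, reduced to the same 250 bases), whereas the Ink4a start, 12.5 kb further along the gene, had 7 (46.3%) and the Cdkn2b start, 16.4 kb before Arf, had 12 (33.5%).
Cdkn2a Arf start, chr4:88940558-88940807: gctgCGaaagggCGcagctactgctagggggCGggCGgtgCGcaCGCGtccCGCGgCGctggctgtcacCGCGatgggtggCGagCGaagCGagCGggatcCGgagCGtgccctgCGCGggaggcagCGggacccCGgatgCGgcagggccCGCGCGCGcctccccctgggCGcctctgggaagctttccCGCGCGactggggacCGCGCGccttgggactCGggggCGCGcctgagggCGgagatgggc
Cdkn2a Ink4a start, chr4:88928097-88928346: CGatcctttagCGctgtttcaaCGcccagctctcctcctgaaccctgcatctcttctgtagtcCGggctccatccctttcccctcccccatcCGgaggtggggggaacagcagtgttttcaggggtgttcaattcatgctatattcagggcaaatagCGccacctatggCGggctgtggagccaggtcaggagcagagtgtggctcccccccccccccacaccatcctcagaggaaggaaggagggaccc
Cdkn2b start, chr4:88956942-88957191: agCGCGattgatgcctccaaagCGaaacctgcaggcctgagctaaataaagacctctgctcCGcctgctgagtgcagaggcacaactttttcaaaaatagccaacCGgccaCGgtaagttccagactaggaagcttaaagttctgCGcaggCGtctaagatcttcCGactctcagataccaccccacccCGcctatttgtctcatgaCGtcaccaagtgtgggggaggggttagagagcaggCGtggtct

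Cdkn2a, at chr4:88920377-88940557 on the minus strand of mm9, had its highest H3.3 levels in D12S- and D9T-. On the successful route its H3.3 level was 17.4 for D0, 19.3 for D3, 87.6 for D6T-, 122 for D9T-, 20.9 for D12S+ and 14.4 for D16S+, with 26.4 for iPSCs and no peak in ESD3. On the unsuccessful route it was 30.9 for D6T+, 46.1 for D9T+, 212 for D12S- and 64.9 for D16S-. The highest of the 12 levels was thus that of D12S-, with a 95% Poisson interval of 195 to 230.2 that did not overlap the 110.3 to 135 of D9T-. These intervals cover counting error only, and 22.0% of the D12S- tags lay in peaks against 14.8% in D9T-. Per kb of window the gene ranked alike in both, at the 85.5th and 84.9th percentile of all genes. By the share inside the window (75.1% and 91.0%), the levels were 160 for D12S- and 111 for D9T-. A missing peak does not mean a level of 0, since tags outside peaks are not in the lists, and no fold was computed against it.

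H3K4me3 at the same gene was read apart for its starts, which give different products by alternative first exons. Within 1 kb of the Arf start the H3K4me3 peaks scored 366 for D0, 249 for D3, 465 for D6T-, 292 for D9T-, 99.1 for D12S+, 46.5 for D16S+ and 64.7 for iPSCs. At the Ink4a start they scored 89.2, 65.7, 111, 99.2 and 25.6 in D0 to D12S+ in the same order and 15.8 in iPSCs, with no peak in D16S+. The Arf score was the higher in all 7 libraries, and a peak covered the Arf start itself in 7 of 7 libraries and the Ink4a start in 6. H3.3 peaks covered these starts less often: a peak lay over the Arf start only in iPSCs and D4 and over the Ink4a start in D6T-, D9T-, D12S- and D16S-, of 16 libraries. Within 1 kb the 2 starts were nearly alike in H3.3, with a peak in 6 of 16 libraries at Arf and 7 of 16 at Ink4a. H3K36me3 was called on Cdkn2a only in D0, at 29.9, and in D9T-, at 8.49.

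**Figure D1:**
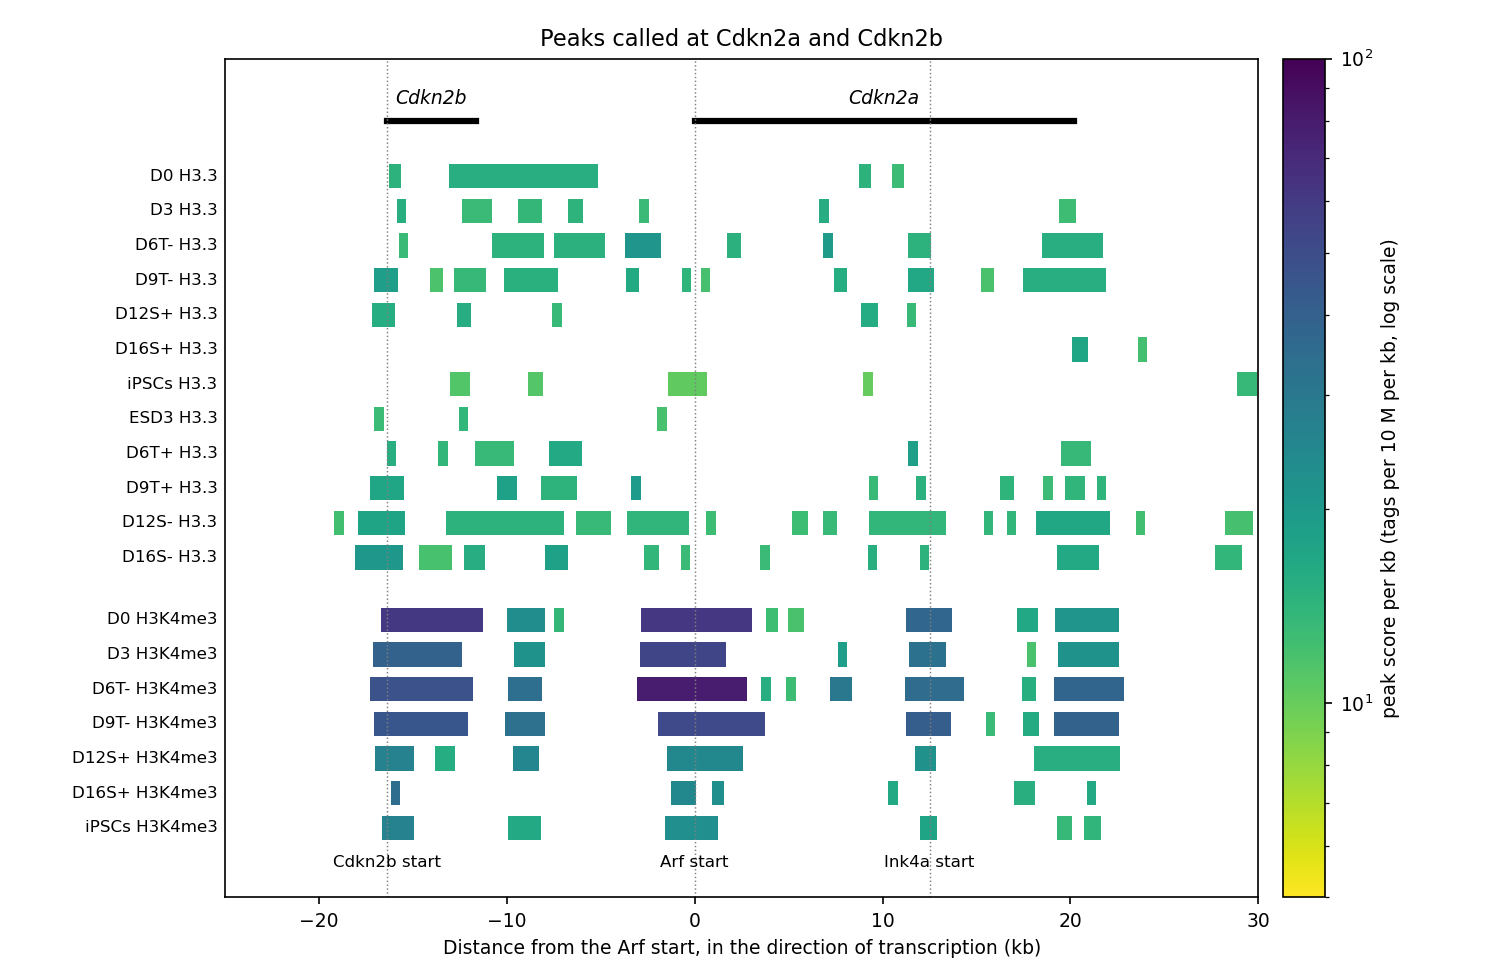
Peaks called at Cdkn2a and Cdkn2b in the 12 reprogramming H3.3 libraries and the 7 H3K4me3 libraries, by distance from the Arf start in kb (positive in the direction of transcription); bars are peaks, their colour the score per kb on a log scale, and black lines the genes. H3K4me3 peaks stood over the Arf start in all 7 libraries, while H3.3 peaks lay mostly away from it.

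Cdkn2b, at chr4:88952198-88956941 on the minus strand, encodes p15, an inhibitor of CDK4 and CDK6. Its H3.3 level was 129.7 for D0, 28.6 for D3, 46.7 for D6T-, 54.2 for D9T- and 29.7 for D12S+, with no peak in D16S+, 11.9 for iPSCs and 13.4 for ESD3. The unsuccessful fractions had 42.4 for D6T+, 30.9 for D9T+, 135 for D12S- and 89.8 for D16S-, so that D0 and D12S- were highest with overlapping Poisson intervals (117 to 144 and 122 to 149.5). Most of the D0 value came from 1 peak, from 13.1 to 5.15 kb before the Arf start with a score of 120.6 (the authors' value), and only 35.5% of the D0 sum fell inside the window of the gene. The other fibroblast library, MEF, had a Cdkn2b level of 16.9, with an interval of 13.4 to 21.1 that overlapped the 8.81 to 15.7 of iPSCs. H3K4me3 on Cdkn2b went from 336 for D0 over 187, 257, 224 and 71.5 to 17.4 for D16S+ and 46.2 for iPSCs, and H3K36me3 was called in D0 (65.3), D3 (29.5), D6T- (9.66) and D9T- (27.9) but in none of the 3 later libraries.

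Cdkn1a, at chr17:29227924-29237667 on the plus strand, encodes p21, the CDK inhibitor that p53 induces. Its H3.3 level was 142 for D0, 148 for D3, 289.9 for D6T-, 248 for D9T-, 189 for D12S+, 88.6 for D16S+, 80.4 for iPSCs and 51.3 for ESD3. The unsuccessful fractions had 146, 184, 296 and 220.1 at days 6, 9, 12 and 16. Every library had a peak, and per kb of window the gene ranked between the 89.8th and 98.5th percentile of all genes over the 12 reprogramming libraries. Its first annotated start lies 2.8 kb before the second, and the 250 bases before the first start hold a match to the p53 response element, capitalised here because p53 is known to act on Cdkn1a through such elements.
Cdkn1a first start, chr17:29227674-29227923, plus strand of mm9: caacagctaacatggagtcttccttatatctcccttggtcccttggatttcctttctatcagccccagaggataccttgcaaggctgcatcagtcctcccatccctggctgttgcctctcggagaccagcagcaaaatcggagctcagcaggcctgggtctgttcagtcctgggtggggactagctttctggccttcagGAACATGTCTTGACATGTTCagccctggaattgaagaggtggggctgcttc

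The match was found by a search for the 20-base p53 consensus with at most 1 mismatch, which matches its own reverse complement, and 0.0578% of the 32851 RefSeq windows held a match. An H3.3 peak covered it in 8 of 16 libraries: D6T-, D9T-, D12S+, iPSCs, ESD3, D9T+, D12S- and D16S-. D0, D3, D6T+, MEF and D4 had an H3.3 peak within 1 kb of this start that did not reach the match, and D16S+, cKit+ and cKit- had none there. H3K4me3 covered it in 6 of 7 libraries, D16S+ being the exception. The same search over all 9 genes and their flanks gave 1 match each in Cdkn2b and Mdm2, 2613 and 10818 bases inside the genes from their starts. The Mdm2 match lay under an H3.3 peak in 14 of 16 libraries (not in ESD3 and cKit-) and under an H3K4me3 peak in 0 of 7, and the Cdkn2b match lay under an H3.3 peak in 3 of 16 and under H3K4me3 in 5 of 7, all but D16S+ and iPSCs.
Mdm2 match, chr10:117136977-117136996, minus strand of mm9: GGACTTGTCCAGCCAAGTTT
Cdkn2b match, chr4:88954309-88954328, minus strand of mm9: AGACATGTCCGGTCTTGCTC

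Cdkn1b, at chr6:134870419-134875531 on the plus strand, encodes p27, which inhibits cyclin E and CDK2 complexes in quiescent cells. Its H3.3 level was 7.05 for D0, 64.6 for D6T-, 32.3 for D9T-, 14.9 for D12S+, 20.2 for D16S+, 45.8 for iPSCs and 6.24 for ESD3, with no peak in D3. On the unsuccessful route there was no peak in D6T+, and the level was 27.8 for D9T+, 161 for D12S- and 94.4 for D16S-. The unsuccessful cells of days 12 and 16 thus held the highest values, whose Poisson intervals (146 to 176 and 81.8 to 109) lay above that of iPSCs (39.4 to 52.7). Only 52.6% of the D12S- sum and 35.6% of the D16S- sum fell inside the window of the gene, against 69.3% in iPSCs, and by that share the levels were 84.5 for D12S-, 38.7 for D6T-, 33.6 for D16S- and 31.7 for iPSCs. H3K4me3 on Cdkn1b was 724 for D0, 513 for D3, 879 for D6T-, 685 for D9T-, 156 for D12S+, 67.4 for D16S+ and 115 for iPSCs, and no library had an H3K36me3 peak on it. Its order over the libraries therefore differed between the marks: D0 was among the lowest of the H3.3 levels and was above iPSCs in H3K4me3.

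Trp53, at chr11:69393861-69405375 on the plus strand, encodes p53 itself. Its H3.3 level was 129 for D0, 136 for D3, 281 for D6T-, 190 for D9T-, 117 for D12S+, 36.3 for D16S+, 139 for iPSCs and 108 for ESD3. The unsuccessful fractions had 91.3, 137, 302 and 135 at days 6, 9, 12 and 16. D0, iPSCs and ESD3 lay close together, and D16S+ was below the other 11 reprogramming libraries. D16S+ also had the lowest share of tags in peaks of these libraries (4.88%). Per kb of window Trp53 ranked at the 91.3rd percentile of all genes in D16S+, above its rank in D0 (89.3), with 94.4 in iPSCs and 97.4 in ESD3. H3K4me3 was 528 for D0, 710.4 for D6T-, 195 for D12S+ and 314 for iPSCs, with no peak in D16S+, and iPSCs alone had an H3K4me3 peak near a second start inside the gene. Wrap53 overlaps the window of Trp53, and peaks there cannot be divided between the 2 genes.

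Mdm2, at chr10:117125944-117147814 on the minus strand, encodes the ubiquitin ligase that degrades p53. It had the highest H3.3 rank of the 9 genes per kb of window in 10 of the 12 reprogramming libraries (not in D12S+ and ESD3), at the 95.8th to 99.0th percentile of all genes. Its H3.3 level was 622 for D0, 522 for D3, 714 for D6T-, 574 for D9T-, 259 for D12S+, 232 for D16S+, 328 for iPSCs and 142 for ESD3. The unsuccessful fractions had 639, 494, 706 and 577 at days 6, 9, 12 and 16, within the range of the first 4 libraries of the successful route (522 to 714) or just below it. H3K36me3 on Mdm2 was also high for its length, at the 97.2nd to 99.7th percentile, and was 834 for D0, 958 for D9T-, 76.6 for D12S+, 50.8 for D16S+ and 196 for iPSCs. Some of its H3.3 peaks ran into the neighbouring gene Cpm.

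Rb1, at chr14:73583480-73725629 on the minus strand, encodes the pocket protein that holds back E2F. Its H3.3 level was 187 for D0, 240.3 for D3, 898 for D6T-, 616 for D9T-, 149 for D12S+, 134 for D16S+, 164 for iPSCs and 139.9 for ESD3. The unsuccessful fractions had 190.1, 368, 875 and 324 at days 6, 9, 12 and 16. D6T- and D12S- had the highest levels, with peaks over 40.5% and 35.5% of the window against 7.61% in D0. They also had the highest shares of tags in peaks of the 12 libraries (19.3% and 22.0%), and the part of this was not tested. By rank per kb they did not stand apart, at the 81.1st and 79.0th percentile, with 81.5 in D9T- and 80.0 in D16S+. At 142.2 kb Rb1 is the longest of the genes, its window also holds Lpar6 and Rcbtb2, and per kb it ranked between the 59.9th and 81.5th percentile over the 12 libraries. The 250 bases before its start hold 45 CG dinucleotides, a number reached by 0.405% of the RefSeq windows.

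Ccnd1, at chr7:152115836-152125774 on the minus strand, and Ccnd2, at chr6:127075797-127101066 on the minus strand, encode D cyclins that activate CDK4 and CDK6 in response to growth signals. The H3.3 level of Ccnd2 was 316 for D0, 293 for D3, 448 for D6T-, 393 for D9T-, 80.0 for D12S+, 23.5 for D16S+, 16.6 for iPSCs and 25.7 for ESD3. The unsuccessful fractions had 298, 312, 607 and 351 at days 6, 9, 12 and 16. The 4 late successful and pluripotent libraries were thus below all 8 others, and peaks covered 70.4% of the window in D0, 72.0% in D16S-, 5.97% in D16S+ and 5.21% in iPSCs. Ccnd1 was at 231 for D0, 199 for D3, 297 for D6T-, 247 for D9T-, 108 for D12S+, 37.4 for D16S+, 51.9 for iPSCs and 7.40 for ESD3. Its unsuccessful fractions had 259, 233, 322 and 264, all above every late successful or pluripotent library. Of the 6 fibroblast markers 0 had a peak in the same D16S+ cells and 5 in D16S-, and their part in the cyclin values was not tested. In such bulk samples fewer cells with the mark and less of it per cell cannot be told apart. Oraov1 overlaps the Ccnd1 window.

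**Figure D2:**
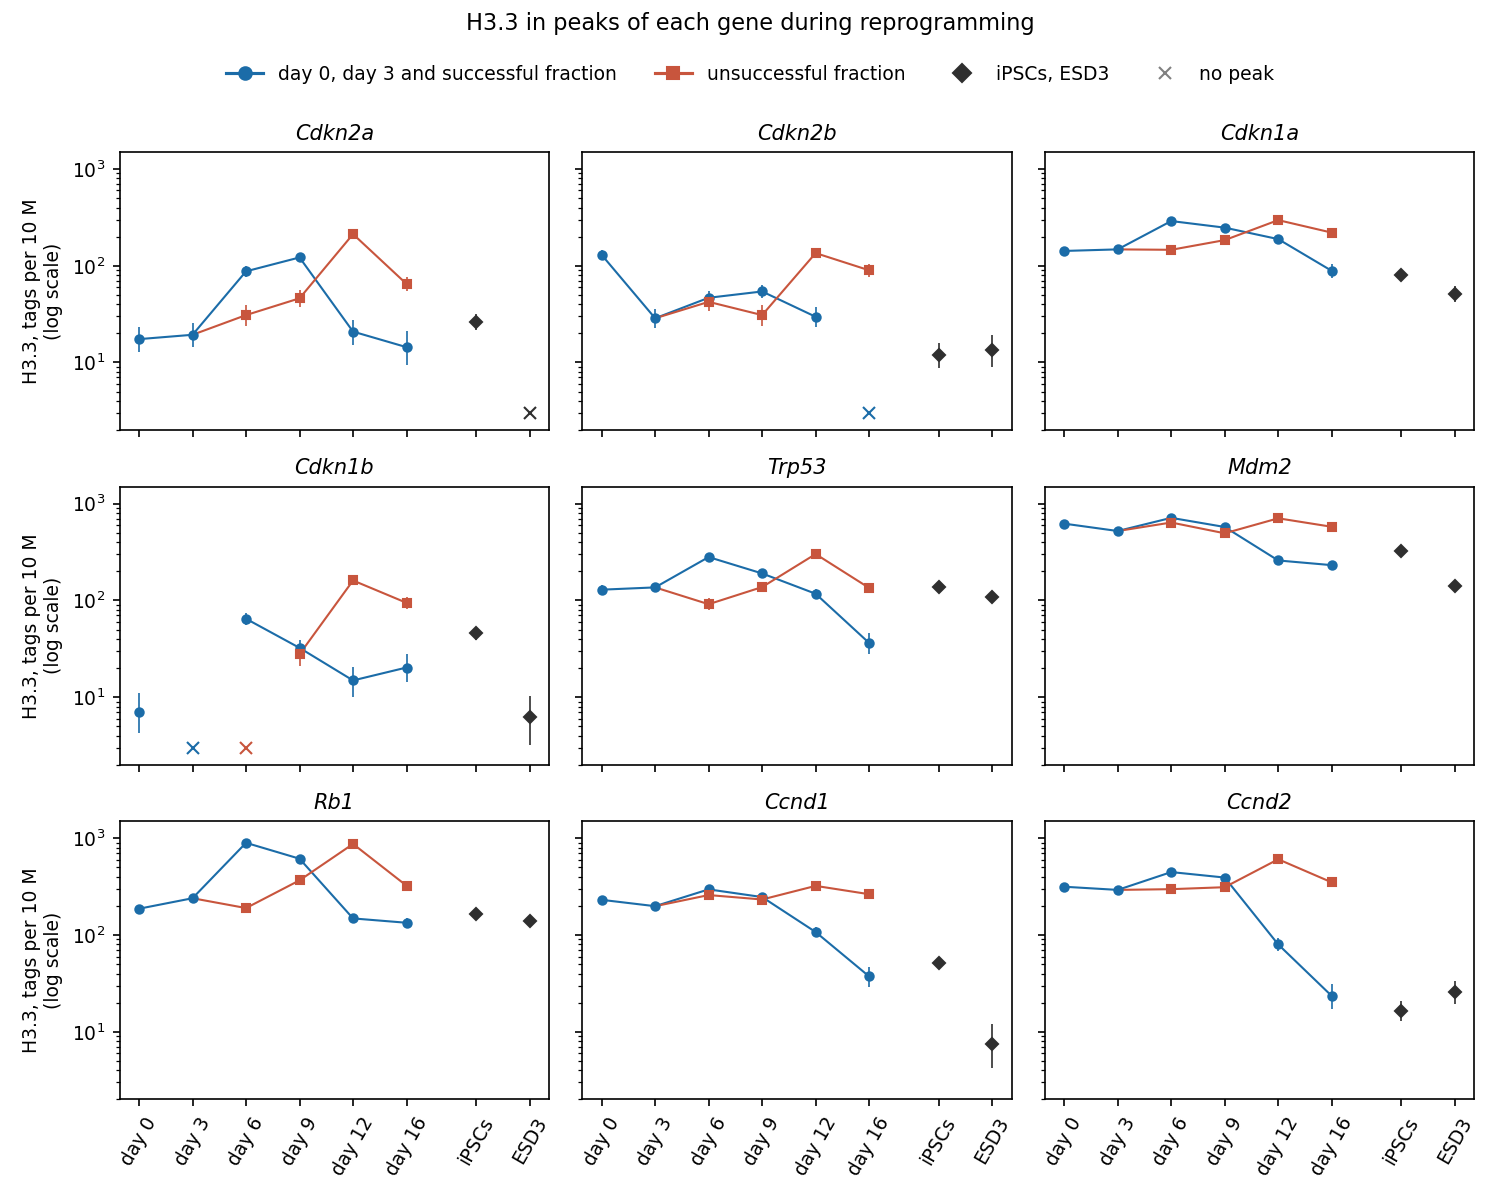
Summed H3.3 score of each gene in tags per 10 M tags (log scale) against day, for the successful route (blue), the unsuccessful fractions (red) and iPSCs and ESD3 (black), 1 library a point, with bars for the 95% Poisson interval and crosses for no peak. At day 12 the successful fraction was below the unsuccessful one for all 9 genes, and Ccnd2 reached 23.5 in D16S+ against 351 in D16S-.

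The starting fibroblasts were then set against the end point. A gene was called lower or higher where its sums differed by at least 2-fold or where only 1 of the libraries had a peak, and the same call was made over all protein-coding genes. From D0 to iPSCs 3 of the 9 genes were lower in H3.3 (Cdkn2b, Ccnd1 and Ccnd2), beside 41.6% of 15728 genes, and 1 was higher (Cdkn1b), beside 24.6%, so that both shares lay at or below those of all genes. The D0 level of Cdkn1b rested on 19 tags, with an interval of 4.24 to 11.0. The log2 ratio was -4.25 for Ccnd2, a value at or below which 2.28% of the genes with peaks in both libraries lay. It was -3.45 for Cdkn2b (5.38%), -2.16 for Ccnd1 (16.6%) and 2.70 for Cdkn1b (96.9%), with a median of all genes with peaks in both of -0.53, and medians of all genes are taken over such genes throughout. By the share of each peak inside the window, the Cdkn2b ratio was -1.95. The remaining 5 genes had ratios of 0.60 (Cdkn2a), -0.82 (Cdkn1a), 0.10 (Trp53), -0.92 (Mdm2) and -0.19 (Rb1). The sums differed mainly in covered length: peaks covered 21.2 kb of Ccnd2 in D0 and 1.42 kb in iPSCs, its ratio per covered kb was -0.36, and on that scale 0 of the 9 genes were lower and 0 higher. When peaks had to reach 4-fold over input, 8 genes were lower and 0 higher. Shares of all genes were not computed per covered kb or at this fold, so these counts have no background. Against ESD3 in place of iPSCs 6 of 9 were lower, beside 65.7% of all genes, and the ratio of Cdkn1b was -0.18, with the opposite sign to iPSCs.

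The MEF library of the other experiment showed how far apart these fibroblast libraries lay. Between D0 and MEF 7 of 9 genes were lower in MEF, beside 66.8% of all genes, and after the median of -1.38 was taken off, 95% of the genes with peaks in both libraries lay between -2.52 and 2.34. On that scale the D0 to iPSCs values of Ccnd2 (-3.72), Cdkn2b (-2.91) and Cdkn1b (3.23) lay outside this range and that of Ccnd1 (-1.62) inside it. The D0 to iPSCs comparison itself was wider, with 95% of such genes between -3.641 and 3.445. By that range Ccnd2 lay outside, and Cdkn2b, Cdkn1b and Ccnd1 lay inside. With MEF as the starting cells Ccnd2 was the only gene lower in iPSCs, and Cdkn1b, Trp53 and Rb1 were higher, so that the Cdkn2b and Ccnd1 calls rested on the D0 library. The share of all genes called from MEF to iPSCs was not computed, so these counts have no background. MEF had 7.64% of its tags in peaks, against 19.1% in D0 and 14.0% in iPSCs, and the part of this was not tested. The unsuccessful end of the route was unlike iPSCs at the cyclins: from D0 to D16S- the ratios were 0.15 for Ccnd2 and 0.19 for Ccnd1, and 2 of 9 genes were higher, Cdkn1b (3.74, at the 99.7th percentile of genes with peaks in both libraries) and Cdkn2a (1.90, at the 96.3rd), beside 15.7% of all genes.

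**Figure D3:**
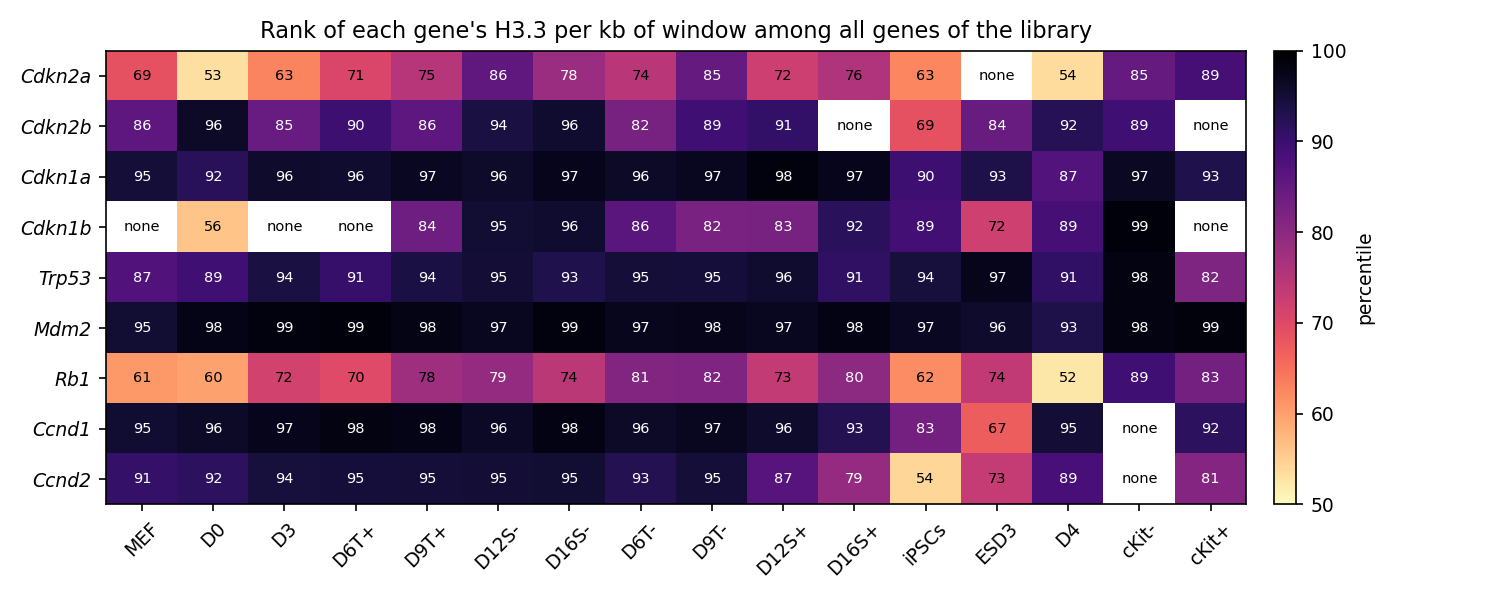
Percentile of each gene's H3.3 score per kb of window among all 22238 genes of the same library, for the 16 H3.3 libraries, with "none" for no peak. Mdm2 stayed between 93.5 and 99.0, whereas Ccnd2 stood at 91.7 for D0, 95.3 for D16S-, 79.0 for D16S+ and 54.2 for iPSCs.

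Sorted fractions of the same day were compared next, as log2 of the successful over the unsuccessful fraction. At day 6, 4 genes were higher in the successful fraction (Cdkn2a, Cdkn1b, Trp53 and Rb1), beside 52.5% of all genes, and 0 were lower, beside 8.26%. At day 9, Cdkn2a alone was higher, beside 28.3%, and 0 were lower, beside 12.9%. The direction was the opposite on the SSEA-1 days: 8 genes, all but Cdkn1a, were lower at day 12, beside 80.7%, and 0 higher, beside 3.73%, and 9 were lower at day 16, beside 69.5%, and 0 higher, beside 9.74%. The median ratio of all genes moved likewise, from 0.91 and 0.31 at days 6 and 9 to -1.74 and -1.44 at days 12 and 16, and the share of tags in peaks moved with it, at 19.3% in D6T- against 10.9% in D6T+ and at 6.93% in D12S+ against 22.0% in D12S-. Its part in the result was not tested. Some single ratios turned with the processing: that of Cdkn2b at day 6 (0.14) was -2.69 with gene bodies alone and -1.71 by the share inside the window, and that of Cdkn2a at day 9 (1.40) was -1.98 when peaks had to reach 4-fold over input.

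Against the median of their day the genes parted. Ccnd2 was -1.19 at day 12 and -2.46 at day 16, where 3.4% of the genes with peaks in both fractions lay as low, and Ccnd1 was 0.15 and -1.38. Cdkn2a was above the median on the Thy-1 days (0.60 and 1.10) and below it on the SSEA-1 days (-1.61 and -0.73). Cdkn1a was the only gene above the median on all 4 days, by 0.08, 0.12, 1.09 and 0.13, a description for which Cdkn1a was singled out. Without the median taken off it was higher on 2 of 4 days. Over the days without the median taken off, the two-sided exact permutation p of the signs lay between 0.5 and 1.0 for the 9 genes. With the median taken off, the p of the same test lay between 0.125, for Cdkn1a, and 0.875. The smallest p that 4 days allow is 0.125 (0.25 with 3), the sorting marker differed between the days, and this design cannot pass a threshold of 0.05.

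**Figure D4:**
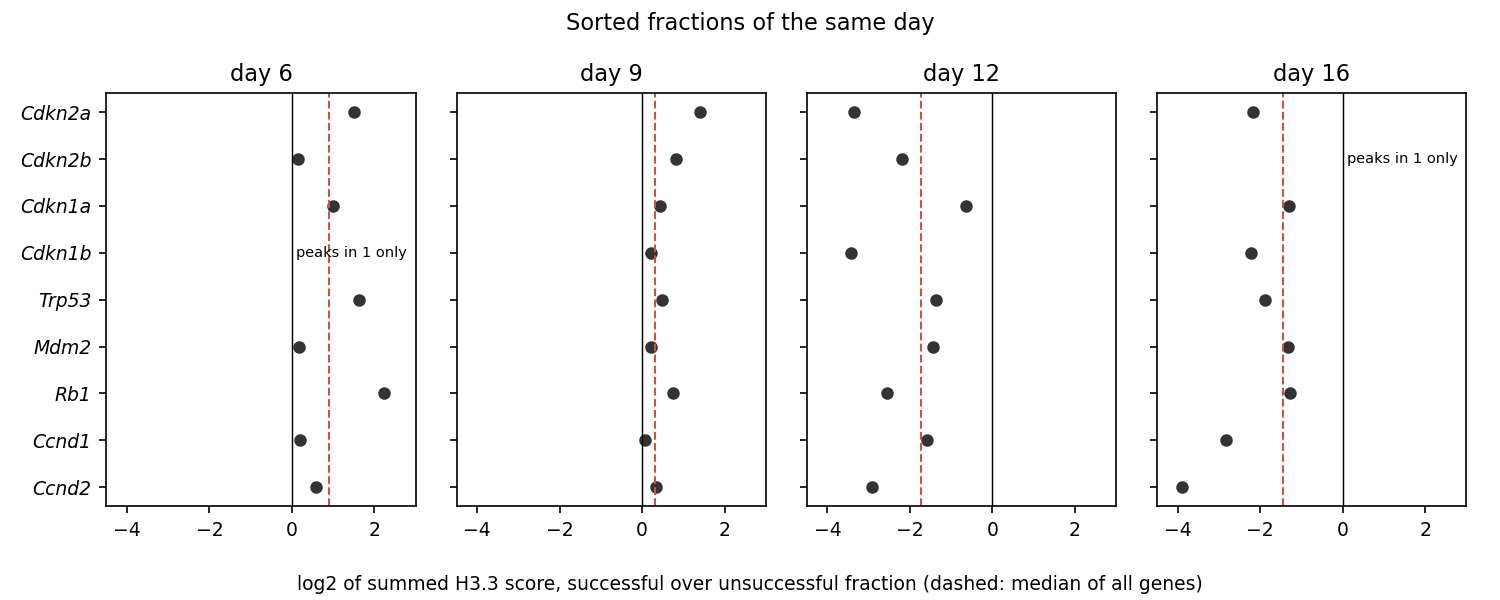
Log2 of the summed H3.3 score in the successful over the unsuccessful fraction for each gene, 1 panel a day and 1 library a fraction; the dashed line is the median of all genes. All points lay right of 0 at days 6 and 9 and left of it at days 12 and 16, as the medians did, with Ccnd2 at -3.90 at day 16; other settings turned Cdkn2b at day 6 and Cdkn2a at day 9, among others.

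H3K4me3 was lower in iPSCs than in D0 on 8 of the 9 genes, beside 71.1% of 16285 genes, and higher on 0, beside 5.54%. The H3K4me3 level of Ccnd2 was 654, 533, 768, 534, 175 and 54.7 over the days of the successful route, and 132 in iPSCs. That of Ccnd1 was 706, 526, 771, 441, 141 and 55.0, and 216 in iPSCs. Both cyclin genes thus had their highest H3K4me3 in D6T- and their lowest in D16S+. Cdkn1a, the p53 target, went from 534 in D0 to 867 in D6T-, 114 in D16S+ and 197 in iPSCs. Rb1 had 529.7, 827, 41.2 and 226 in the same libraries, and Mdm2 had 571, 572, no peak and 232. The gene that was not called was Trp53, with a log2 ratio of -0.75, against a median of all genes of -1.38. By sums of whole peaks the CDK inhibitors of the Ink4 locus and p27 lay lowest: -2.86 for Cdkn2b, at the 4.22nd percentile of genes with peaks in both libraries, -2.65 for Cdkn1b, at the 5.99th, and -2.44 for Cdkn2a, at the 8.50th. Ccnd2 (-2.31) and Ccnd1 (-1.71) followed, and Cdkn1a (-1.44), Mdm2 (-1.30) and Rb1 (-1.23) lay near the median. After the median of these sums was taken off, Cdkn2a, Cdkn2b and Cdkn1b were the 3 genes still lower by 2-fold, beside 14.2% of all genes. The order depended on peaks that reached outside the windows. By the share inside the window, Cdkn1b went from 462 in D0 to 110 in iPSCs and Cdkn2a from 419 to 84.0. Ccnd2 went from 351 to 64.4 on that scale, a larger fall than either, and Cdkn2b from 336 to 46.2. Every promoter kept an H3K4me3 peak within 1 kb of its first start in iPSCs, and in D16S+, the library with the fewest H3K4me3 tags in peaks (3.71%), Trp53 and Mdm2 had none.

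H3K36me3 was lower in iPSCs on 8 genes of the 8 with a peak in either library, beside 88.9% of 11731 genes, and higher on 0, beside 6.66%. In iPSCs peaks were left on Mdm2 (196), Cdkn1a (36.4) and Trp53 (27.8), which in D0 had 834, 252 and 159. The other 5, with 444 (Ccnd2), 311 (Rb1), 86.7 (Ccnd1), 65.3 (Cdkn2b) and 29.9 (Cdkn2a) in D0, had no peak in iPSCs. The 3 ratios were above the median of -3.19 of genes with peaks in both libraries, and 2.88% of the iPSC tags lay in peaks against 31.3% in D0. D9T- was highest for 6 of the 8 genes, and this library had 42.4% of its tags in peaks.

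**Figure D5:**
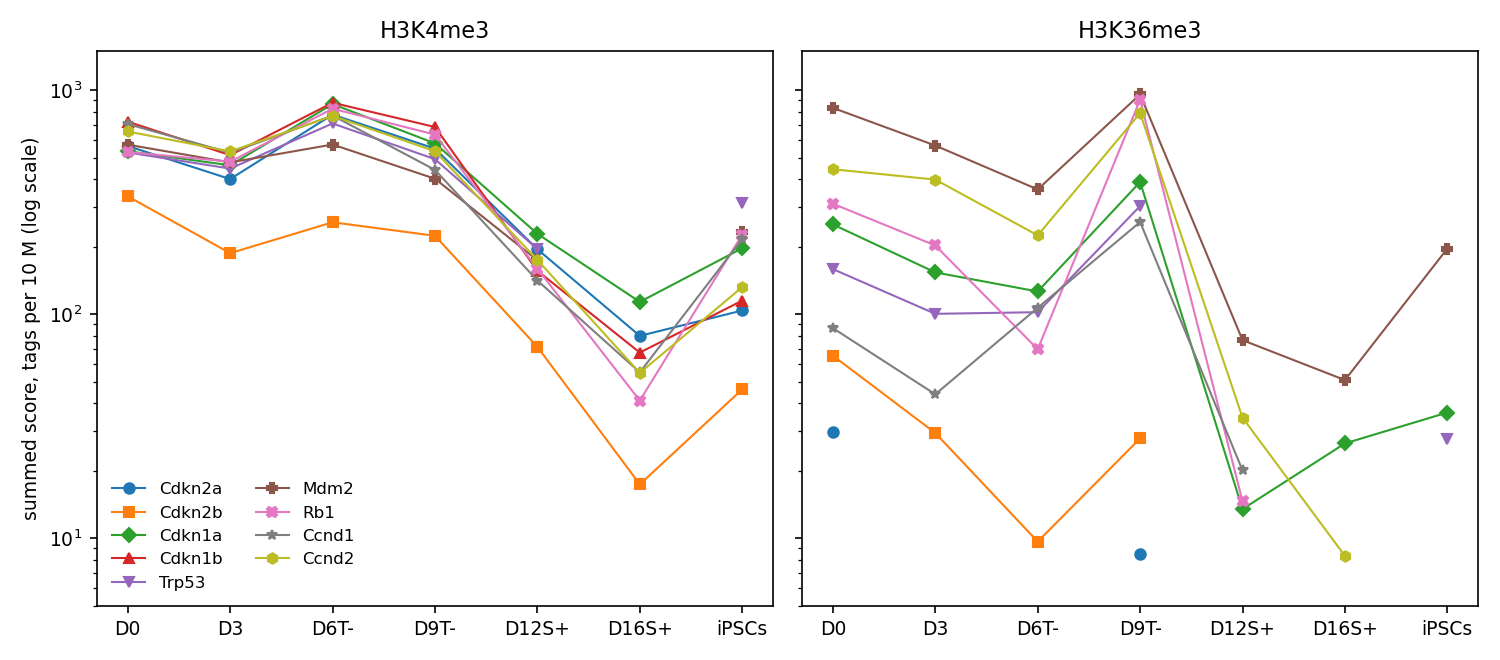
Summed H3K4me3 (left) and H3K36me3 (right) scores in tags per 10 M tags (log scale) in the 7 libraries of the successful route, 1 line a gene, with gaps where no peak was called. H3K4me3 was lower in D12S+ than in D9T- on all 9 genes, and H3K36me3 peaks were left in iPSCs on Mdm2, Cdkn1a and Trp53.

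In the transdifferentiation the 9 genes went the way of nearly all genes. MEF to D4 gave 9 of 9 genes higher, beside 95.2% of all genes, D4 to cKit+ 9 lower, beside 98.5%, and D4 to cKit- 9 lower, beside 97.1%. In D4, with 37.2% of its tags in peaks, the levels reached 754 for Mdm2, 564 for Ccnd2, 455 for Ccnd1, 362 for Rb1, 338 for Trp53, 216 for Cdkn1a, 186 for Cdkn2b, 151 for Cdkn1b and 59.7 for Cdkn2a. MEF had 180, 110.3, 93.7, 53.2, 38.5, 84.7, 16.9, no peak and 14.9 for the same genes in this order. After the median of all genes was taken off, 1 gene (Cdkn1a) was lower, beside 13% of all genes, and 1 (Cdkn1b, with a peak only in D4) higher, beside 41.6%, from MEF to D4. In the sorted cells both cyclin genes lacked a peak in cKit- and had 7.74 (Ccnd2) and 8.56 (Ccnd1) in cKit+, whereas Cdkn1b had 34.4 in cKit- and no peak in cKit+. The lowest peak score was 3.54 in cKit+, with 91.75 M tags, and 4.17 in cKit-, with 51.57 M. Peaks on Ccnd1 in cKit+ scored 4.09 and 4.47, near that floor, and the part of depth was not tested. Mdm2 kept 52.95 in cKit+ and 82.1 in cKit-, and Rb1 47.8 and 109.

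The wider pathway was read from a list of 63 further genes of the p53, Rb and senescence pathways. In H3.3, from D0 to iPSCs, 26 of the 62 with a peak were lower (41.9%, beside 41.6% of all genes), 10 were higher (16.1%, beside 24.6%) and 26 were neither, and the list's median ratio was -0.51 against -0.53. Of 18 targets of p53, 9 were lower, 3 higher, 5 neither and 1 without a peak. Of 8 cyclins and kinases, 1 was lower and 2 were higher. Of the 11 regulators of the Ink4/Arf locus, 5 were lower and 2 higher. Among the 6 senescence markers, 4 were lower and 1 higher. In H3K4me3 43 of 63 were lower (68.3%, beside 71.1% of all genes) and 0 higher (beside 5.54%). In H3K36me3 48 of 56 were lower (85.7%, beside 88.9%) and 4 higher (7.14%, beside 6.66%).

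The highest D0 levels among the lower genes were those of Hmga2, an architectural protein that restrains Ink4a/Arf, at 2893 in D0 and 366 in iPSCs, Ets1, a transcription factor that activates Ink4a, at 982 and 5.22, and Cdk6, a partner of the D cyclins, at 497 and 244. The highest iPSC levels among the higher genes were those of Usp7, a deubiquitinase of Mdm2 and p53, at 368 in D0 and 1133 in iPSCs, Kdm2b, a histone demethylase that represses the Ink4 locus, at 188.5 and 747, and Ccnd3, the remaining D cyclin, at 218 and 694. Ccnd3 thus ran opposite to Ccnd1 and Ccnd2, with 564 for ESD3, 328 for D16S+ and 302 for D16S-. In H3K4me3 Ccnd3 had 502 in D0 and 377 in iPSCs, a difference under 2-fold.

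Likeness between genes was described by Pearson's r of the within-library rank of the summed H3.3 score over the 12 reprogramming libraries, among 11906 genes with a peak in at least 8 of them; points share libraries, and with 12 points and so many genes high values are usual. Ccnd2 was most like Cyth3 (r = 0.992), Prickle2 (0.992) and Mink1 (0.988), and Ccnd1 most like Mllt3 (0.985), Camk2d (0.984) and Gabarap (0.984). Cdkn2a was most like Tlx2 (0.956), Cdkn2b like 4632428N05Rik (0.941), Cdkn1a like Eif4g2 (0.956), Cdkn1b like Acot1 (0.937), Trp53 like Ecscr (0.959), Mdm2 like Ipo13 (0.939) and Rb1 like Gm10129 (0.942). Among the 9 genes themselves r was highest for Mdm2 with Ccnd1 (0.829), Cdkn2a with Ccnd1 (0.778) and Ccnd1 with Ccnd2 (0.768), and lowest for Trp53 with Mdm2 (-0.482).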

How the data were processed

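Peak lists of 30 ChIP-Seq libraries (16 H3.3, 7 H3K4me3, 7 H3K36me3) were used; 16 input samples had no peak list used here. Per the file headers and methods the authors aligned reads with STAR to mm9 and called peaks with HOMER in histone style against input, at a fold of at least 2 (H3.3) or 4 (H3K4me3, H3K36me3) and a p-value of 1.00e-04 over input; tool versions are not given in the sources used here. The deposited signal column is a normalized tag count, scaled by the authors to 10 M tags a library, beside the deposited fold (a ratio to input) and p-value columns.

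Peaks overlapping a GENCODE vM1 gene by at least 1 base, with 1 kb on each side, were summed per library, so that a wide peak counts whole. Raw tags were recovered from library totals for exact 95% Poisson intervals. Calls needed a 2-fold difference or a peak in 1 library only. The members and gene lists were chosen with earlier results of these data known. Named pathway genes were the 3 with the highest D0 level among those lower and the 3 with the highest iPSC level among those higher, where the call also held with equal numbers of top-scoring peaks. Alternatives covered window, peak threshold, scaling and starting cells. Gene assignment was tested on simulated data. Python 3.11.15, numpy 2.4.6, pandas 2.3.3, scipy 1.17.1 and matplotlib 3.10.9 were used.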

Additional observations from a re-analysis of the deposited data

Results flagged for a closer look

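In 7 genes with an H3.3 peak in all 8 sorted libraries, the successful fraction was above the unsuccessful one on both Thy-1 days and below it on both SSEA-1 days. The mean log2 ratio of the SSEA-1 days minus that of the Thy-1 days was -4.21 for Cdkn2a, -3.87 for Ccnd2, -3.41 for Rb1, -2.67 for Trp53, -2.34 for Ccnd1, -1.69 for Cdkn1a and -1.57 for Mdm2. The difference was not tested, since each fraction and day held 1 library. Of all 7067 genes with peaks in the 8 libraries, 4181 (59.2%) had opposite signs on the Thy-1 and SSEA-1 days. That number counts both directions, and the share with the direction of these 7 genes was not computed. The median ratio of all genes turned the same way, from 0.91 and 0.31 at days 6 and 9 to -1.74 and -1.44 at days 12 and 16. With that median taken off, Cdkn2a alone of the 7 genes kept these signs, and Mdm2 had the opposite ones (-0.75, -0.09, 0.29 and 0.12).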

How the results depend on the processing

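No paired analysis was possible because each group held 1 library, other than the comparison of fractions by day given above. Of the counts of genes called under another setting, 93 stayed within 1.5 times the reported count and 53 did not; of 405 log2 ratios of single genes, 61 changed sign, 23 of them from a reported difference of at least 2-fold. Causes were not tested beyond the construction of each setting. From D0 to iPSCs in H3.3, where 3 genes were lower and 1 higher, 5 were lower with gene bodies alone and with input subtracted, 8 lower and 0 higher at a fold over input of at least 4, 0 and 0 per covered kb, 1 and 3 with MEF as the starting cells, 6 and 0 with ESD3 as the end point, and 2 were higher with equal numbers of peaks, with scaling to all peak scores and with the median taken off. The Cdkn1b ratio was then -0.38 per covered kb and -0.18 with ESD3. Of all genes, 65.7% were lower with ESD3, and 33.4% were lower and 31.4% higher with the median taken off. Shares with the median taken off are also given below. For the other settings, here and below, shares of all genes were not computed, and their counts have no background.

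Between fractions, at day 6, 1 gene was lower with gene bodies alone and with scores by the share inside the window and 2 at a fold of at least 4, while 2 were higher after scaling, 1 per covered kb and 2 with the median taken off. With the median taken off, 30.6% of all genes were higher at day 6. At day 12, 37.0% were lower and 14.1% higher on that scale, and at day 16, 42.9% were lower. At day 9, 3 were lower and 0 higher at a fold of at least 4, with Cdkn2a at -1.98, and 0 were higher per covered kb. At day 12, 3 were lower and 1 higher both after scaling and with the median taken off, with ratios of 0.30 and 0.37 for Trp53, 0.22 and 0.29 for Mdm2 and 0.08 and 0.15 for Ccnd1, and per covered kb 0 were lower, with 0.03 for Cdkn2a and 0.02 for Cdkn2b. At day 16, 1 was higher at a fold of at least 4, and 3 were lower both after scaling and with the median taken off, with 0.01 and 0.13 for Cdkn1a, 0.01 and 0.12 for Mdm2 and 0.05 and 0.17 for Rb1; per covered kb 1 was lower, with 0.15 for Cdkn2a, 0.11 for Trp53 and 0.05 for Rb1.

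In H3K4me3, 4 genes were lower after scaling (Rb1 at 0.03) and 3 with the median taken off (Mdm2 at 0.09, Rb1 at 0.16), and in H3K36me3 5 under either. From MEF to D4, 4 were higher at a fold of at least 4, 2 after scaling, 2 per covered kb and 1 with the median taken off. From D4 to cKit+, 4 were lower at that fold and 5 under scaling or with the median taken off, and from D4 to cKit- 4 at that fold and 3 after scaling, per covered kb and with the median taken off. In the pathway list, H3K4me3 was higher on 1 gene at a 1.5-fold call and lower on 23 at a 3-fold call, and lower on 5 and higher on 6 with the median taken off. H3K36me3 was higher on 7 with equal numbers of peaks, and lower on 19 and higher on 19 with the median taken off. With the median taken off, 14.2% of all genes were lower and 12.7% higher in H3K4me3, and 49.1% lower and 21.3% higher in H3K36me3. On that scale 41.6% were higher from MEF to D4, 64.7% lower from D4 to cKit+ and 67.6% lower from D4 to cKit-. Taking the median off and the MEF and ESD3 exchanges were chosen after the data were seen. Tags outside peaks, replicate error and the share of tags in peaks limit all values.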

Other observations

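An H3K4me3 peak about 10 to 8 kb before the Arf start, between Cdkn2b and Cdkn2a and outside both windows, was called in 6 of 7 libraries, all but D16S+. Its score was 46.2 for D0, 36.2 for D3, 62.4 for D6T-, 70.0 for D9T-, 35.0 for D12S+ and 28.8 for iPSCs.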
